A study of Mus musculus with 12 samples.

Results

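The expression of 10 genes that encode proteins of the lipid droplet was examined in liver and duodenum of mice treated with corticosterone (CORT) or vehicle (Veh). The genes were taken by symbol from the RNA-seq tables of both tissues, and each was found once among the 55416 genes listed. They were the perilipins Plin2 (ENSMUSG00000028494), Plin3 (ENSMUSG00000024197), Plin4 (ENSMUSG00000002831) and Plin5 (ENSMUSG00000011305), the CIDE genes Cidea (ENSMUSG00000024526), Cideb (ENSMUSG00000022219) and Cidec (ENSMUSG00000030278), the lipase Pnpla2 (ENSMUSG00000025509) with its inhibitor G0s2 (ENSMUSG00000009633), and Fitm2 (ENSMUSG00000048486). CORT is the main glucocorticoid of rodents. Male C57BL6/J mice, 8 weeks old at the start, were injected subcutaneously every day for 8 weeks with CORT at 40 mg/kg or with its vehicle of DMSO, Tween-80 and water, so the mice of both groups were injected. RNA was prepared from 50 mg of liver or duodenum, with 3 CORT and 3 Veh libraries per tissue, which the labels number as biological replicates, and 12 libraries in all. Whether a liver and a duodenum library of the same number came from the same mouse is not stated.

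Lipid droplets store triacylglycerol and sterol esters behind a single layer of phospholipid, and the proteins on that surface decide how the store is filled and emptied. Perilipins coat the droplet and limit the access of lipases, CIDE proteins join droplets and pass lipid from small to large ones, and Fitm2 helps droplets to form at the endoplasmic reticulum. Pnpla2, also called ATGL, takes the first fatty acid from triacylglycerol, its coactivator Abhd5 speeds this step, and G0s2 blocks it. Hepatocytes hold few droplets in a lean animal and many in steatosis, whereas enterocytes fill with droplets for some hours after a fatty meal.

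The regions just upstream of the transcription starts are shown for Plin5, Plin4 and G0s2, the genes whose calls in 1 tissue held in every setting tried, and for Cideb, one that did not pass the test in either tissue. Windows of 250 bases before the start were taken from RefSeq (GRCm38.p6, an older build than the GRCm39 of the deposited tables), in which 9 of the 10 genes had an entry, with 11 windows in all. Each sequence is written 5′ to 3′ on the strand of the gene and ends at the base before the start. Capitals mark exact matches, on either strand, to CCAAT (or ATTGG), the nuclear receptor half-site AGGTCA (or TGACCT), the glucocorticoid receptor half-site AGAACA (or TGTTCT) or TATAAA.
Plin5, second start, chr17:56117549-56117798, minus strand: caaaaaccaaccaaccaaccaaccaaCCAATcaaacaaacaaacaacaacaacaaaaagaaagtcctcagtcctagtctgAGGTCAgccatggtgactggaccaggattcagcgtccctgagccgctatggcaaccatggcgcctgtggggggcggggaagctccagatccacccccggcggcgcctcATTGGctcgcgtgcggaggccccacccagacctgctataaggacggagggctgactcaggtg
Plin4, chr17:56109783-56110032, minus strand: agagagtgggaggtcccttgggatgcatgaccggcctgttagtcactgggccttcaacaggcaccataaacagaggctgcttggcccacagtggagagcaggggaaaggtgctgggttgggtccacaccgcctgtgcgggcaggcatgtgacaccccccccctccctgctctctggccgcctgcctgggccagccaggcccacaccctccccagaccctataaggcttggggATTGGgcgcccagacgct
G0s2, chr1:193273189-193273438, minus strand: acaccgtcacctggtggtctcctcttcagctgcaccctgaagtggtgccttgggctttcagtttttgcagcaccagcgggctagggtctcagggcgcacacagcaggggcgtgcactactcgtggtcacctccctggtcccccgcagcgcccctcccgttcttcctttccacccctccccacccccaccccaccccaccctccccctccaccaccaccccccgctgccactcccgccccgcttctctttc
Cideb, chr14:55758425-55758674, minus strand: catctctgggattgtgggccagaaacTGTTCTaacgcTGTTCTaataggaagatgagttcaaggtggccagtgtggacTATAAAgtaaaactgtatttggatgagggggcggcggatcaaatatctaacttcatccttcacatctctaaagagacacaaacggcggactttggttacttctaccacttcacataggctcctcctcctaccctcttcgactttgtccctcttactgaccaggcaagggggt
The full glucocorticoid response element, written as AGAACA and TGTTCT with 3 bases between them, was in 0 of the 11 windows and in 0.00913% of 32851 windows of all genes. The DR1 element, a direct repeat of AGGTCA with 1 base between that is bound by PPAR with RXR, was in 0 of 11 and in 0.0335% of all windows. The glucocorticoid receptor half-site was found in 1 of 11 windows, that of Cideb, where it occurs at positions -224 and -213 from the start, and in 16.1% of all windows. The half-site AGGTCA was in the window of the second Plin5 start at -170 and in that of Plin2 at -218, and in 14% of all windows. CCAAT was in 4 of the 11 windows, those of Plin2, Plin3, Plin4 and Plin5, and in 33.8% of all windows. TATAAA, in 12.4% of all windows, was in the Cideb window at -172. The window of G0s2, the gene that rose in both tissues, held none of these letters, and neither did the window of the first Plin5 start, which is not shown. A match of letters in a window is a description of the sequence and not a measured binding site.

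Some libraries stood apart from the rest of their group. The deposited values are TPM, transcript levels per length that are scaled to nearly the same sum in every library, so that levels of different genes can be compared but the number of reads behind them is unknown. Fkbp5, a glucocorticoid-induced gene used as a control of the treatment, was at 7.14 to 23.3 TPM in the Veh libraries and at 221 to 379 TPM in the CORT libraries of both tissues. In the liver, CORT3 had the lowest level of its group for 9 of the 10 droplet genes, against 36.6% of all tested genes, and the highest summed level of 8 macrophage and Kupffer cell markers, 286 TPM against 99.5 and 155 in the other CORT and 118 to 146 in the Veh libraries. In the duodenum, CORT2 had the lowest level of its group for 9 of the 10 droplet genes, again against 36.6% of tested genes, and 33 pancreatic acinar markers summed to 46721 and 37770 TPM in the libraries Veh2 and Veh3, but to 692 TPM in Veh1 and to 703 to 963 TPM with CORT. Of 10 adipocyte markers, 4 were listed at 0 in all 6 livers, among them Adipoq and Lep, and Plin1, the perilipin of fat cells, was at 0.05 TPM or less. The adipocyte marker sums in liver, 7.84 to 24.3 TPM in Veh and 29.2 to 49.4 in CORT, came mainly from Fabp4 and Lipe, which other cells express too. The 8 hepatocyte markers summed to 47919 to 78438 TPM in the liver libraries and to 392 to 437 TPM in the duodenum libraries, and the 8 enterocyte markers to 17969 to 34295 TPM in duodenum and to 257 to 4109 TPM in liver. The hepatocyte marker sums in duodenum came mainly from Cps1 and Hnf4a, and Alb was at 0.13 to 0.39 TPM there. The enterocyte marker sums in liver came from Apoa4, Anpep, Fabp2 and Mttp, while Alpi, Lct, Sis and Vil1 were each under 1 TPM. The part that these markers and libraries have in the results was not tested. In tissue RNA, fewer cells of a type and less RNA per cell cannot be told apart.

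In vehicle-treated mice the droplet genes had a different order of levels in each tissue. Cideb was the highest in both, with a mean of 256 ± 10.3 TPM in liver and 380 ± 48.6 TPM in duodenum (SD, n = 3 each). In liver it was followed by Plin2 at 185 ± 55.0 TPM, whose range overlapped that of Cideb, and by G0s2 at 125 ± 4.51 TPM. In duodenum the next genes were Cidec at 147 ± 6.44 TPM and Plin3 at 132 ± 21.2 TPM, whose ranges overlapped, and then Plin2 at 83.6 ± 10.02 TPM and Pnpla2 at 80.1 ± 7.23 TPM, which overlapped as well. At the lower end, Plin4 and Cidea had means under 1 TPM in both tissues, and Plin5 was at 16.4 ± 3.96 TPM in liver but at 0.0867 ± 0.0737 TPM in duodenum.

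The difference between the vehicle-treated tissues was tested in a limma fit of all 12 libraries on log2(TPM + 1). Of the 10 genes, 7 passed an adjusted p of 0.05 with a fold change over 1.5, where 65.6% of all 14806 genes did, so the share of the droplet genes was near that of all genes. Of these, 4 were higher in liver, as were 14% of all genes, and 3 were lower, as were 51.6% of all genes. G0s2 was higher in liver by 4.33 on the log2 scale (SE 0.32, adjusted p = 2.2e-07) and Plin5 by 3.98 (SE 0.24, adjusted p = 3.5e-08). Plin2 and Fitm2 were higher in liver by 1.10 and 0.80 (adjusted p = 0.0384 and 0.0101), and the call of Plin2 held in 6 of 12 fits without a library and that of Fitm2 in all 12. Cidec, with a log2 difference of -4.98 (SE 0.68, adjusted p = 4.7e-05), Plin3, with -3.57 (SE 0.25, adjusted p = 1.7e-07), and Pnpla2, with -1.02 (SE 0.23, adjusted p = 0.00202), were lower in liver than in duodenum. The median of all genes was -0.68 on this scale and -0.025 after median-ratio scaling, in which a library is divided by its median ratio to the geometric mean of all libraries. Under that scaling 46.5% of the called genes were higher in liver instead of 21.4%, the call of Pnpla2 was lost at -0.23, and the difference of Cideb went from -0.56 to 0.24.

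**Figure D1:**
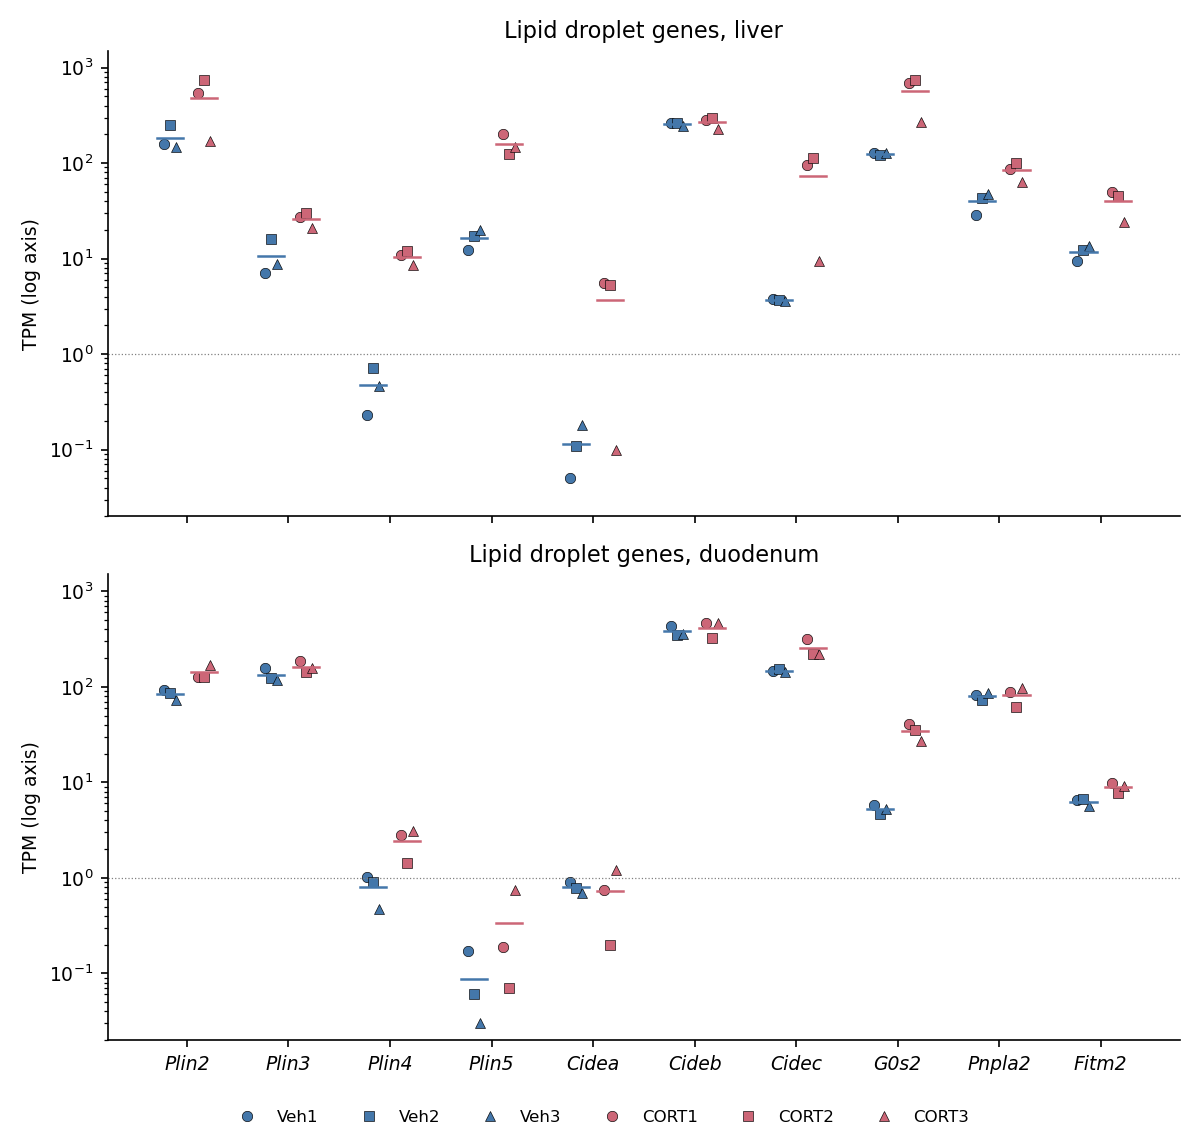
TPM (log axis) of the 10 droplet genes in the 6 liver libraries (top) and the 6 duodenum libraries (bottom), with blue for Veh, red for CORT, 1 symbol per replicate number and lines at the group means; the dotted line is 1 TPM. The CORT libraries lie above the Veh libraries for 7 genes in liver and 5 in duodenum, and liver CORT3, the red triangle, lies well under the other CORT livers for Plin2, Cidea, Cidec and G0s2.

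CORT-treated livers had higher levels of most droplet genes. Plin3, Plin4, Plin5, G0s2, Pnpla2 and Fitm2 rose, with mean TPM 2.11 to 22.4 times those of the Veh livers, and no droplet gene fell. Thus 6 of the 10 genes passed the test (limma, adjusted p of 0.05 or less over all 11699 genes and a fold change over 1.5), where 4.91% of all tested genes were called higher, 2.01% lower and 6.92% in either direction. For 7 genes the values of the treatments were separate, all with CORT above, which held for 20.6% of all genes (11.6% with CORT below and 32.2% in either direction). The median log2 difference of the 10 genes was 1.66, and that of all genes 0.078. Plin4 and Cidea passed the filter on low values only through the CORT group. Without liver CORT3, 8 genes were called, but Plin3 was not among them. Without any other liver library only Plin4 and Plin5 were called, joined by Plin3 without Veh2. Without a filter on low values, which raised the number of genes tested to 23316, Plin4 and Plin5 were called.

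Plin5, the perilipin of tissues that burn fat, which links droplets to mitochondria, was at 12.2, 17.2 and 20.0 TPM in the Veh livers and at 203, 125 and 146 TPM in the CORT livers. The lowest CORT value was 6.25 times the highest Veh value. The means were 16.4 ± 3.96 and 158 ± 40.4 TPM (SD, n = 3), a log2 difference of 3.19 (SE 0.24, adjusted p = 0.00178). Plin4, a perilipin with a long repeat region that is abundant in fat and muscle, was at 0.23, 0.72 and 0.46 TPM in Veh and at 10.9, 12.05 and 8.60 TPM in CORT. Every Veh liver was under 1 TPM and every CORT liver was at 8.60 TPM or more, a log2 difference of 2.97 (SE 0.19, adjusted p = 0.00143). The calls of Plin4 and Plin5 held in all 6 fits that left out a library and in the 6 other settings tried. On the opposite strand, Plin4 overlaps exons of Hdgfl2. The methods of the study name an orientation mode for the alignment, but whether strand was used to assign reads to genes is not stated.

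Plin3, a perilipin that moves from the cytosol to new droplets, was at 7.09, 16.1 and 8.85 TPM in Veh and at 27.2, 30.1 and 20.8 TPM in CORT livers. The groups did not overlap, and the log2 difference was 1.27 (SE 0.29, adjusted p = 0.0468), just under the threshold. The call of Plin3 held in 1 of 6 fits without a library, the one without Veh2. It was lost with no filter on low values and with the replicate number as a block. Plin2, the main perilipin of hepatocytes and the most abundant of the family in liver, was at 159.8, 248 and 146 TPM in Veh and at 537, 743 and 169.7 TPM in CORT. CORT1 and CORT2 were above every Veh liver, but CORT3 lay within the Veh range. The log2 difference of 1.18 (SE 0.53, 95% interval -0.068 to 2.42) did not pass the test (adjusted p = 0.213), and without CORT3 it was 1.81 (adjusted p = 0.0224).

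Among the CIDE genes, Cidec, which fuses droplets into larger ones and is typical of fat cells and fatty livers, was at 3.82, 3.66 and 3.59 TPM in Veh and at 95.3, 113 and 9.41 TPM in CORT livers. The Veh livers were nearly equal, and every CORT liver was above them, but CORT3 was nearer to the Veh livers than to the other CORT livers. The log2 difference of 3.37 (SE 0.84) missed the threshold (adjusted p = 0.0607). Without CORT3 it was 4.48 (adjusted p = 5.2e-04), and with a pseudocount of 0.1 in place of 1 it was 3.63 (adjusted p = 0.0487). Cidea, a relative known from brown fat, was at 0.05, 0.11 and 0.18 TPM in Veh and at 5.60, 5.28 and 0.10 TPM in CORT, so that CORT3 was at the level of the Veh livers. Its log2 difference of 1.68 (SE 0.67) did not pass the test (adjusted p = 0.169), and without CORT3 it was 2.53 (adjusted p = 0.00423). Ucp1, the defining gene of brown fat, was listed at 0 in all 12 libraries. Cideb, the CIDE gene of hepatocytes and enterocytes, which acts in the lipidation of lipoproteins, was at 263, 261 and 244 TPM in Veh and at 282, 295 and 229.8 TPM in CORT livers. These ranges overlapped, and the log2 difference of 0.064 (95% interval -0.26 to 0.39, adjusted p = 0.802) turned to -0.031 under median-ratio scaling. Exons of Cideb overlap Nop9 on the opposite strand.

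G0s2, the inhibitor of Pnpla2, was at 126, 120.15 and 129 TPM in Veh and at 692, 740.5 and 267 TPM in CORT livers. Every CORT liver was above every Veh liver, with CORT3 at 2.07 times the highest Veh value and the other CORT livers far above it. The log2 difference was 2.03 (SE 0.37, adjusted p = 0.0261). Pnpla2 itself was at 28.5, 43.0 and 47.7 TPM in Veh and at 87.2, 101 and 63.2 TPM in CORT, without overlap, a log2 difference of 1.06 (SE 0.25, adjusted p = 0.0488). Fitm2, which acts in the budding of droplets, was at 9.52, 12.3 and 13.4 TPM in Veh and at 50.3, 45.8 and 24.1 TPM in CORT. Its groups did not overlap either, and the log2 difference was 1.63 (SE 0.29, adjusted p = 0.0225). Among the 6 fits with a liver library left out, the 1 without CORT3 kept the calls of G0s2, Pnpla2 and Fitm2, at 2.51, 1.25 and 1.96, and in the other 5 their adjusted p lay above 0.05. Exons of Fitm2 overlap 2310001K24Rik on the opposite strand.

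In the duodenum, G0s2 rose and the other droplet genes did not pass the test. It was at 5.83, 4.71 and 5.25 TPM in Veh and at 40.3, 35.1 and 27.2 TPM in CORT libraries. The lowest CORT value was 4.67 times the highest Veh value. The means were 5.26 ± 0.560 and 34.2 ± 6.59 TPM (SD, n = 3), and the log2 difference of 2.48 (SE 0.17, adjusted p = 0.00310) was called in every fit that left out a library and in the 7 other settings. Of the 8 genes tested in the duodenum, 1 was called, where 2.15% of 13607 genes were called in either direction, 1.23% higher and 0.919% lower. For 5 genes all CORT values were above all Veh values, which held for 12.2% of all genes. In either direction 26.4% of all genes were separate, 14.3% of all genes with CORT below. Plin4 passed the filter there through the CORT group alone, and Plin5 and Cidea, with means under 1 TPM in both groups, were not tested.

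The 4 other genes whose values did not overlap in the duodenum were Plin2, Cidec, Plin4 and Fitm2. Plin2 was at 92.6, 85.3 and 72.8 TPM in Veh and at 128, 126 and 171 TPM in CORT, a log2 difference of 0.75 (SE 0.17, adjusted p = 0.0764). Cidec, which was much higher here than in liver, was at 146, 154 and 141 TPM in Veh and at 316, 221 and 222 TPM in CORT, a log2 difference of 0.76 (SE 0.17, adjusted p = 0.0764). Neither was called in any fit without a library. Fitm2 was at 6.53, 6.63 and 5.63 TPM in Veh and at 9.76, 7.75 and 9.11 TPM in CORT (log2 difference 0.44, SE 0.14, adjusted p = 0.157). Plin4 was at 1.01, 0.90 and 0.47 TPM in Veh and at 2.82, 1.43 and 3.10 TPM in CORT (log2 difference 0.92, SE 0.26, adjusted p = 0.133). Adipocyte genes varied among the same libraries, with Adipoq at 0.81, 0.05 and 0 TPM in Veh and 0.78, 0 and 3.02 TPM in CORT, and Plin1 at 0.32, 0.12 and 0 TPM in Veh and 0.17, 0 and 1.15 TPM in CORT. The 10 adipocyte markers summed to 56.9 to 88.8 TPM in Veh and 88.5 to 119 TPM in CORT. These sums came mainly from Lipe and Fabp4, which other cells express too. Of the 6 markers tested, 4 had a higher estimate with CORT, while those of Cfd and Lgals12 were lower. Adipoq and Trarg1 passed the filter on low values only through CORT and Cfd only through Veh, so their directions followed from the filter.

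The remaining genes showed no separation in the duodenum. Plin3 was at 156, 123 and 117 TPM in Veh and at 186, 141 and 159 TPM in CORT (log2 difference 0.30, 95% interval -0.098 to 0.69, adjusted p = 0.383). Cideb was at 436, 349 and 354 TPM in Veh and at 459.7, 326 and 465 TPM in CORT (log2 difference 0.12, 95% interval -0.31 to 0.56, adjusted p = 0.744). Pnpla2 was at 81.9, 72.2 and 86.3 TPM in Veh and at 88.9, 62.1 and 97.5 TPM in CORT (log2 difference 0.026, 95% interval -0.42 to 0.47, adjusted p = 0.956). These intervals hold both a fall and a rise of modest size, so small changes were not resolved with 3 libraries per group. Plin5 was at 0.03 to 0.17 TPM in Veh and 0.07 to 0.74 TPM in CORT, and Cidea at 0.70 to 0.91 TPM in Veh and 0.20 to 1.22 TPM in CORT, with overlapping ranges.

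**Figure D2:**
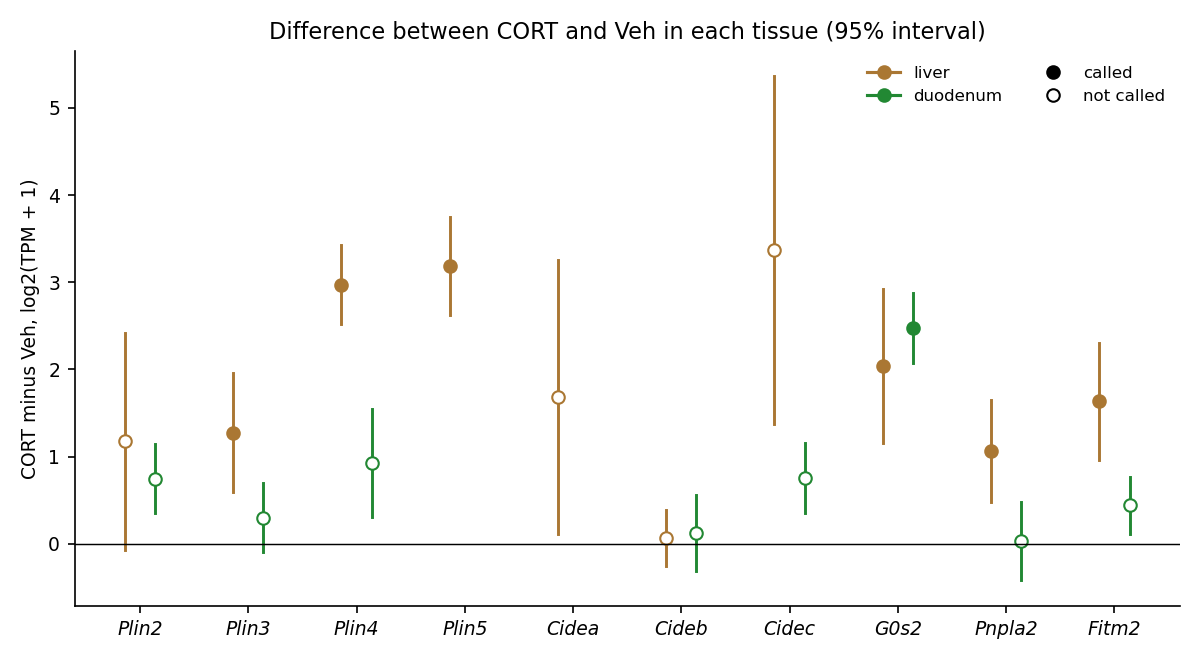
Difference between CORT and Veh on the log2(TPM + 1) scale for each droplet gene in liver (brown) and duodenum (green), with 95% intervals from limma; filled points passed an adjusted p of 0.05 and a fold change over 1.5. In liver 6 genes are filled, with Plin4 and Plin5 near 3, and Cidec has the widest interval, whereas in duodenum G0s2 alone is filled, at 2.48. Plin5 and Cidea were not tested in duodenum.

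Whether CORT acted differently on a gene in liver and in duodenum was tested as the difference of the log2 differences, liver minus duodenum, in the fit of all 12 libraries. Plin5 and Plin4 differed between the tissues, with a larger difference in liver by 2.92 (SE 0.33, adjusted p = 0.00113) and 2.05 (SE 0.32, adjusted p = 0.00671). They were 2 of 10 genes, where 3.61% of the 14806 genes passed in either direction and 2.3% with the larger effect in liver. Both calls held in all 12 fits without a library. With a pseudocount of 0.1, where the very low duodenum values of Plin5 weigh more, its difference was 2.30 (adjusted p = 0.122). In duodenum the mean Plin5 TPM with CORT was 3.85 times that with Veh, at levels under 1 TPM. On the log2(TPM + 1) scale this was a difference of 0.26, so the size of the tissue difference depends on the pseudocount. Plin4 and Cidea passed the filter of this fit only through CORT groups, and Plin5 only through liver. For Cidec the estimate was 2.61 (SE 0.97, 95% interval 0.49 to 4.74, adjusted p = 0.179), and without liver CORT3 it was 3.72 (adjusted p = 4.7e-05). In that fit 5 genes were called, with Cidea at 2.64 and Fitm2 at 1.51 beside Cidec, Plin4 and Plin5, and without liver Veh2 Plin3 was called beside Plin4 and Plin5, at 1.29.

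The other genes did not pass this test. Fitm2 had an estimate of 1.19 (adjusted p = 0.0855), Pnpla2 of 1.04 (adjusted p = 0.118), Plin3 of 0.97 (adjusted p = 0.175) and Cidea of 1.79 (adjusted p = 0.251). Pnpla2, called in liver and close to 0 in duodenum, was therefore not shown to respond differently in the tissues. For G0s2, called in both, the estimate was -0.44 (SE 0.45, 95% interval -1.43 to 0.54, adjusted p = 0.647), and without liver CORT3 it was 0.031. Plin2 had an estimate of 0.43 (95% interval -0.92 to 1.78, adjusted p = 0.760) and Cideb of -0.059 (95% interval -0.55 to 0.43, adjusted p = 0.922).

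G0s2 was set against its target in each library as the ratio of their TPM. In liver the ratio was 4.43, 2.79 and 2.71 in Veh and 7.94, 7.33 and 4.22 in CORT, so that CORT3 lay within the Veh range (exact permutation test on the log2 ratio, two-sided p = 0.2, n = 3 each). In duodenum it was 0.0712, 0.0652 and 0.0608 in Veh and 0.453, 0.565 and 0.279 in CORT, without overlap (exact p = 0.1). With 3 libraries against 3, this test cannot give a p below 0.1. Pnpla2 transcripts outnumbered those of G0s2 in every duodenum library, with either treatment, and the reverse held in every liver library. The mean log2 ratio was higher in CORT by 0.96 in liver and by 2.66 in duodenum, and the difference between these was not tested.

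**Figure D3:**
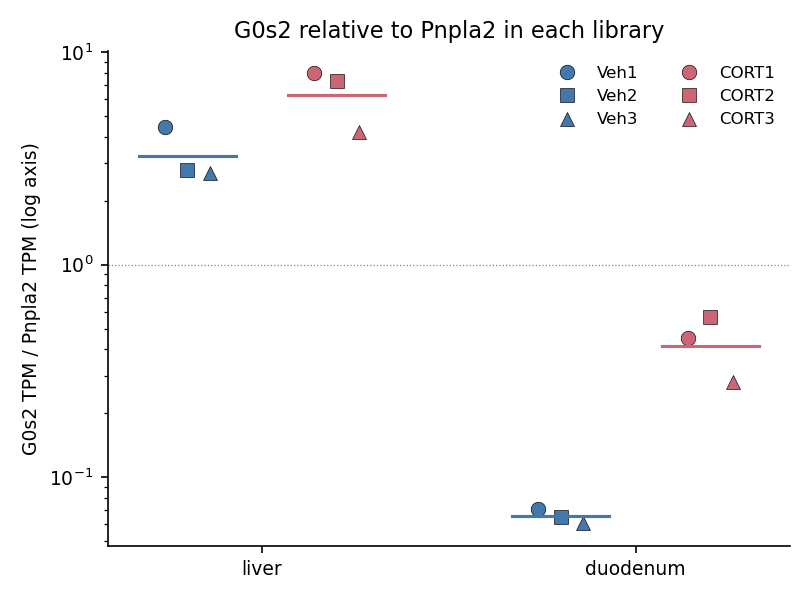
Ratio of G0s2 TPM to Pnpla2 TPM (log axis) in each library of liver and duodenum, Veh in blue and CORT in red, with lines at the geometric means; the dotted line marks equal levels. All liver libraries lie above 1 and all duodenum libraries below it, and the CORT ratios of 0.279 to 0.565 in duodenum lie above the Veh ratios of 0.0608 to 0.0712.

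The share of each gene in the summed TPM of its family was compared in 3 libraries against 3, where the smallest possible p is 0.1, so that no share could pass the threshold. In liver, Plin5 gave 6.78%, 6.11% and 11.4% of the summed TPM of the 4 perilipins in Veh and 26.1%, 13.7% and 42.4% in CORT, and the share of Plin2 was 83.3% to 89.1% in Veh and 49.1% to 81.6% in CORT. Neither overlapped between the groups (exact permutation p = 0.1 for each). CORT3, lowest for most droplet genes, had the highest share of Plin5, since its Plin2 was at the Veh level while its Plin5 was not. In duodenum Plin2 gave 37.0% to 40.8% of the perilipin sum in Veh and 40.4% to 51.2% in CORT, with overlap (exact permutation p = 0.2), and Plin5 under 1% in either group (exact p = 0.5), the rest being nearly all Plin3. Cidec gave 1.43%, 1.38% and 1.45% of the CIDE sum in Veh livers and 24.9%, 27.3% and 3.93% in CORT livers, and 25.0%, 30.6% and 28.5% in Veh against 40.7%, 40.3% and 32.2% in CORT duodenum (exact p = 0.1 in each tissue). Thus Cidec held about the share of the sum in 2 of the CORT livers that it held in Veh duodenum, at a lower level in TPM.

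**Figure D4:**
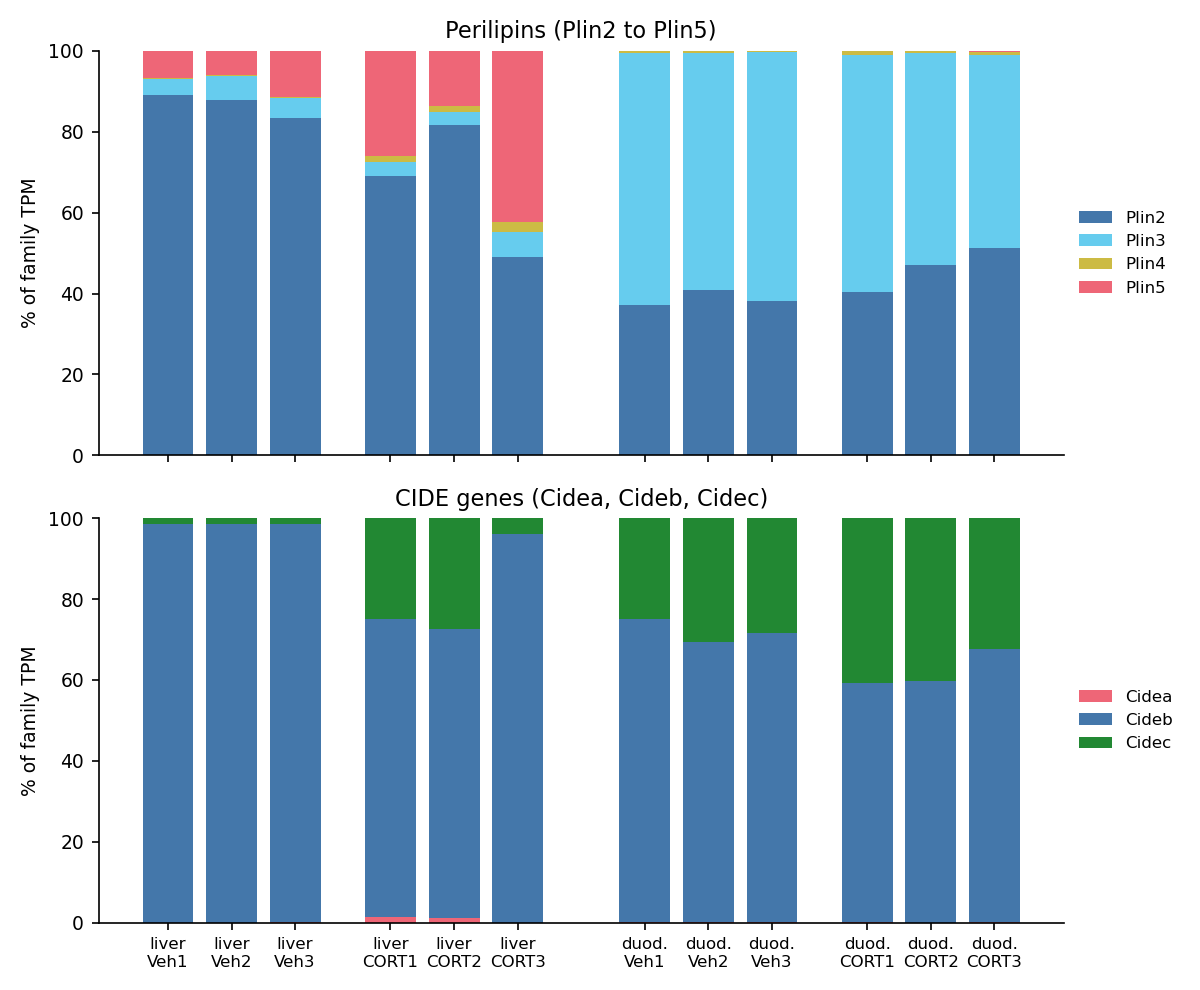
Percent of the summed TPM of the perilipins Plin2 to Plin5 (top) and of the CIDE genes (bottom) given by each gene, 1 stacked bar per library, starting at 0. The Plin5 share in liver is 6.11% to 11.4% in Veh and 13.7% to 42.4% in CORT, and the Cidec share in liver is near 1.4% in Veh and 3.93% to 27.3% in CORT.

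Other genes of droplet metabolism were described by 4 lists. In liver, the list of triacylglycerol and sterol ester synthesis had 4 of 14 tested genes called higher and 0 lower, where 4.91% of all genes were called higher and 2.01% lower, with a median log2 difference of 0.68 against 0.078 for all genes. Of this list, Gpat3, Mogat1 and Soat1 passed the filter on low values only through the CORT group. Such genes enter only when higher in CORT, and the median and the calls include them. Gpat3, an acyltransferase of the first step of glycerolipid synthesis, was at 0.27, 1.55 and 0.61 TPM in Veh and 11.7, 9.94 and 7.08 TPM in CORT (log2 difference 2.58, SE 0.29, adjusted p = 0.00597), and Gpat4, which can act on droplets, was at 22.0, 31.1 and 22.3 TPM in Veh and 104, 61.7 and 108 TPM in CORT (log2 difference 1.80, SE 0.25, adjusted p = 0.0108). Both were called in all 6 fits without a library. Agpat2 and Agpat3, acyltransferases of the next step, rose by 0.71 and 0.70 (adjusted p = 0.0225 and 0.0393), and each call held in 1 of 6 fits without a library. Of the 9 lipolysis genes, 1 was called, where 6.92% of all genes were, which leaves the list near that share. This gene was Mgll, the lipase of monoacylglycerol, which was at 38.2, 31.3 and 36.5 TPM in Veh and 174, 176 and 108 TPM in CORT livers (log2 difference 2.05, SE 0.21, adjusted p = 0.00492). Abhd5, the coactivator of Pnpla2, had a log2 difference of 0.30 in liver (adjusted p = 0.174) and 0.36 in duodenum (adjusted p = 0.291).

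The list of other coat and assembly genes, 18 with 17 tested in liver, had 1 gene called higher, Spg20, whose product spartin sits on droplets (0.99, adjusted p = 0.0164), and 1 called lower, Acsl3, an acyl-CoA synthetase of new droplets, which fell by 1.28 (adjusted p = 0.0436). Each call held in 2 of 6 fits without a library. The count was near the 4.91% of all genes called higher and 2.01% lower, and the median of the list, 0.12, was near that of all genes. Plin1 was not tested in either tissue. Among 10 transcription factors linked to droplet genes, 2 were called higher and 1 lower, where 4.91% of all genes were called higher and 2.01% lower. Creb3l3 and Foxo1 rose in liver by 0.96 and 0.95 (adjusted p = 0.0192 and 0.0357) and Srebf1, the regulator of fatty acid synthesis, fell by 1.71 (adjusted p = 0.0339). These calls held in 2, 1 and 1 of the 6 fits without a library. Nr3c1, the glucocorticoid receptor, had log2 differences of -0.012 in liver (adjusted p = 0.972) and -0.11 in duodenum (adjusted p = 0.859).

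In duodenum each list had 1 gene called, of 16 coat, 14 synthesis, 8 lipolysis and 10 transcription factor genes tested, where 2.15% of all genes were called, 1.23% higher and 0.919% lower. Dgat2, which makes the last bond of triacylglycerol, was at 354, 248 and 268 TPM in Veh and 1265, 982 and 1078 TPM in CORT (log2 difference 1.94, SE 0.18, adjusted p = 0.00621). Ces1d, a carboxylesterase that hydrolyses triacylglycerol, was at 6.35, 12.2 and 12.8 TPM in Veh and 62.9, 65.8 and 97.1 TPM in CORT (log2 difference 2.76, SE 0.29, adjusted p = 0.00921). For both genes the CORT values were far above the Veh values, and the calls held in all 6 fits without a library. In liver Dgat2 had a log2 difference of 0.15 (adjusted p = 0.494) and Ces1d of 1.00 (adjusted p = 0.0767). Ppara, a fatty acid receptor that induces fat oxidation, rose by 1.21 (adjusted p = 0.0329), and Mettl7b, a droplet-associated methyltransferase-like protein, fell by 0.79 (adjusted p = 0.0287), but neither call held in any fit without a library. The medians of the lists in duodenum were 0.11 for the coat genes, 0.19 for synthesis, 0.31 for lipolysis and 0.29 for the transcription factors, against -0.012 for all genes.

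**Figure D5:**
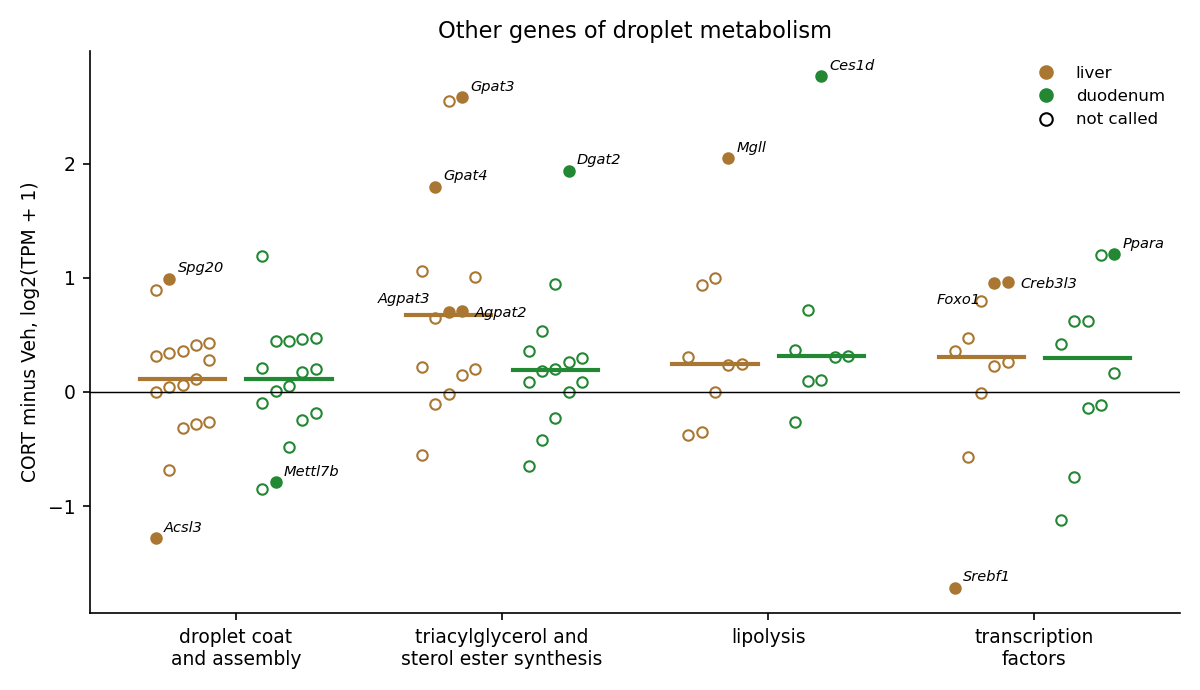
Difference between CORT and Veh on the log2(TPM + 1) scale for the tested genes of 4 lists in liver (brown) and duodenum (green), with lines at the list medians; filled points passed the test and carry the gene name. The synthesis list in liver has 4 filled genes above 0 and a median of 0.68. Its genes Gpat3, Mogat1 and Soat1 passed the filter on low values there only through CORT. Dgat2 and Ces1d are the filled genes farthest above 0 in duodenum.

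The genes whose levels ran most like those of Cidec and Plin2 over the 6 libraries of a tissue were listed as a description, without a test, since the libraries share the treatment groups. For Cidec in liver these were Mtnr1a, a melatonin receptor, Def8, and Etfdh, an enzyme that passes electrons from fatty acid oxidation to the respiratory chain (Pearson r of log2(TPM + 1) 0.999, 0.996 and 0.996). Etfdh was at 78.1, 79.2 and 83.0 TPM in Veh and 164, 166 and 102 TPM in CORT livers, with CORT3 again nearest to the Veh group. For Plin2 in liver they were Orc3, Met and Optn (r of 0.994, 0.992 and 0.987), and Met, the receptor of hepatocyte growth factor, was at 10.6 to 12.4 TPM in Veh and 14.9, 15.6 and 11.5 TPM in CORT. In duodenum they were Prr14, Faim2 and Phldb3 for Cidec (r of 0.991, 0.987 and 0.982) and Serpina1b, Kank1 and Otud1 for Plin2 (r of 0.994, 0.994 and 0.989). Mtnr1a in liver and Faim2 and Otud1 in duodenum were under 1 TPM in every Veh library and passed the filter only through CORT.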

How the data were processed

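RNA-seq was analysed in 12 libraries, 3 per group in each tissue, with groups and replicate numbers taken from the labels. Per the methods of the study, the authors trimmed reads with SeqPrep and Sickle, and the submitters' processing notes name HISAT2, StringTie, RSEM and the build GRCm39. Their versions are not given in the sources used here. The tables deposited by the authors hold TPM for every gene in each single library. TPM keeps no depth, so the number of reads per library is unknown and no counting error, interval or detection limit for counts can be given. The precision comes from the spread between the 3 libraries of each group, pooled over the groups of a fit and drawn by limma toward that of other genes. The comparison of the vehicle-treated tissues thus also draws on the spread of the CORT libraries. No pair of libraries was found to be the same library (at most 444 of 16462 genes above 0 had equal values).

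log2(TPM + 1) was fitted with limma 3.58.1 (lmFit and eBayes with a trend) in R 4.3.3. Each tissue was fitted alone over genes whose mean reached 1 TPM with CORT or with Veh, and the tissues were compared in 1 fit of the 4 groups. The Benjamini-Hochberg adjustment covered all genes tested. A gene was called at an adjusted p of 0.05 or less with a fold change over 1.5, or with no limit on fold change for the difference between tissues. Differences on this scale understate those of low genes. The fits were tested on simulated data. Ratios and shares were tested by exact two-sided permutation.

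The 10 genes, the lists and the tests were chosen with earlier results of these data known. The genes named are the 10 genes, list genes called in either tissue, Abhd5, Plin1, Nr3c1 and Fkbp5, the 3 genes most correlated with Cidec and with Plin2 in each tissue, and markers beside results. The alternatives were no filter on low values, a mean of at least 1 TPM over all libraries, a pseudocount of 0.1, median-ratio scaling, the replicate number as a block, no limit on fold change, removal of pancreatic acinar genes, and leaving out each library. Overlapping genes were read from a GENCODE annotation of GRCm38, and promoters from RefSeq. A skeletal muscle list gave sums of 12.85 to 47.0 TPM in duodenum and 0.82 to 8.25 TPM in liver, and a brown adipocyte list, which includes Cidea, 0.20 to 3.96 and 12.05 to 135 TPM. The brown adipocyte sums in liver came mainly from Elovl3, at 11.2 to 129.7 TPM.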

Additional observations from a re-analysis of the deposited data

Results flagged for a closer look

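The effect of CORT on Plin5 and Plin4 differed between liver and duodenum by the test of the difference itself, in a limma fit of all 12 libraries. The log2 difference between CORT and Veh was larger in liver by 2.92 for Plin5 (adjusted p = 0.00113) and by 2.05 for Plin4 (adjusted p = 0.00671). With a pseudocount of 0.1 the difference of Plin5 was 2.30 and was no longer called (adjusted p = 0.122), and that of Plin4 was 2.80 and still called. Every CORT liver was above every Veh liver for both genes. In the duodenum Plin5 was under 1 TPM in all 6 libraries, and Plin4 was at 0.47 to 1.01 TPM in Veh and 1.43 to 3.10 TPM in CORT. Plin4 passed the filter on low values only through the CORT groups, and Plin5 only through liver.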

How the results depend on the processing

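In liver, where 6 droplet genes were called, 2 were called with no filter on low values and 2 with the replicate block, and 2 to 8 when 1 library was left out, with 8 without CORT3. For the difference between tissues, where 2 were called, 1 was called with a pseudocount of 0.1 and 2 to 5 when 1 library was left out. The single call in the duodenum and the 7 between the vehicle-treated tissues stayed within 1.5 times in every setting, although the Plin2 call between these tissues was lost with no filter, with the replicate block and in 6 of 12 fits without a library. The direction changed only for differences that were not called. That of Pnpla2 in duodenum was -0.014 with the acinar genes removed and -0.10 to 0.22 without a library, and that of Cideb in liver was -0.031 with median-ratio scaling and -0.0064 to 0.17 without a library. Between vehicle-treated tissues, that of Cideb was 0.24 with median-ratio scaling in place of -0.56 (limma adjusted p = 0.0075), which had missed the fold limit alone. Without a library, the difference between tissues was -0.0021 to 1.06 for Plin2, -0.23 to 0.051 for Cideb and -0.70 to 0.031 for G0s2. The causes were not tested. Over all genes, 810 were called in liver, but 283 with no filter, 307 with the replicate block and 247 to 831 without a library. In duodenum 292 were called, but 52, 62 and 66 to 237, and 534 differed between tissues, but 210 with the replicate block and 289 to 626 without a library. Median-ratio scaling called 1011 genes in liver, 53.7% of them higher in place of 71%, and 661 between tissues, 51.1% with the larger effect in liver in place of 63.9%. Deviations of libraries of the same number from their group means had correlations of -0.12 to 0.073. Between CORT and Veh, 4 of 6 duodenum and 1 of 6 liver libraries matched their own number best. Between liver and duodenum, 2 of 6 Veh and 0 of 6 CORT libraries did. With 3 libraries per group this check cannot show that pairs are absent. The labels state no pairing, so the number was not used as one. The depth behind TPM is unknown, and levels under 1 TPM, as for Plin5 and Cidea in duodenum, are of unknown precision.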

Other observations

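Apoa4, an apolipoprotein of enterocytes that fatty livers also express, rose in liver and had the same order of the 3 CORT livers as Cidec, though not of the Veh livers, and was chosen after its values were seen. It was at 76.2, 172 and 117 TPM in Veh and at 2691, 3840 and 555 TPM in CORT livers (log2 difference 3.94, limma adjusted p = 0.0239). In the duodenum it was at 12570.41, 8298 and 7906 TPM in Veh and at 21545, 16882 and 21085 TPM in CORT (log2 difference 1.07, adjusted p = 0.0703). Fabp4, a fatty acid binding protein of fat cells, macrophages and endothelium, was at 11.9, 14.4 and 10.96 TPM in Veh and at 24.4, 36.4 and 35.0 TPM in CORT duodenum and rose there by 1.28 (adjusted p = 0.0272). In liver Fabp4 was at 1.35, 17.6 and 3.52 TPM in Veh and at 19.1, 24.7 and 42.3 TPM in CORT, without overlap. The log2 difference of 2.28 in liver was not called (limma adjusted p = 0.104).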
